A study of Homo sapiens with 5 samples.

Results

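The comparison described here is that of human cells grafted into the prefrontal cortex (PFC) with human cells grafted into the hippocampus (HIP) of mice. A droplet barcode was taken as a human cell when it held more than 500 unique molecular identifiers (UMIs, tags that mark single RNA molecules), more than 500 genes, a mitochondrial share under 15% and over 80% human UMIs in counts against a human-mouse reference. By this rule 29505 of the 34405 human cells of the series belonged to grafts, 14315 of them to PFC and 15190 to HIP. The other 4900 cells came from organoids kept in vitro (D0), which have no graft site and were left out. All grafts were brain organoids made from H9, an established human embryonic stem cell line, in a derivative that carries ChR2, a light-gated ion channel, with the yellow fluorescent protein EYFP at the AAVS locus, and the labels give every sample the genotype WT. Organoids of day 42 were placed bilaterally into 1 of the sites in adult immunodeficient (SCID) mice, and EYFP-bearing tissue was dissected and dissociated with trypsin at 2 or 4 months post transplantation (2MPT, 4MPT). There was 1 library per site and stage, and the labels tie no cell to an animal, so each library may pool hosts and the 2 libraries of a site differ in stage. Human UMIs were summed per library, PFC_2MPT was set against HIP_2MPT and PFC_4MPT against HIP_4MPT, and the stage comparisons share no library.

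Grafted brain organoids (GBOs) of this kind hold forebrain progenitors and neurons, and later astrocytes and cells of the oligodendrocyte lineage. In the host, human neurons face different afferents in the cortex and in the hippocampus, while the donor cell line and the organoid day are the same. Immediate early genes, metal-binding metallothioneins and heat shock chaperones respond to stimuli within minutes to hours, whereas transcription factors of cortical layers, of the hippocampus or of inhibitory neurons mark what a cell is. The mitochondrial genome encodes core subunits of the respiratory chain, whose remaining subunits are encoded in the nucleus.

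The libraries held 5952 to 8363 human cells and 11192237 to 21459173 UMIs in those cells, with a median of 1253 UMIs per cell in HIP and 2359 in PFC at 2MPT, and of 2759 in HIP and 1840 in PFC at 4MPT. PFC_4MPT stood apart from the others, with a median mitochondrial share of 7.31% against 2.35% to 3.77%, with 17.0% of barcodes of mixed species against 1.08% to 6.36%, and with a median of 6.75% mouse UMIs in its human cells against 0.856% to 3.99%. Pairs of graft libraries shared 9 to 20 cell barcodes. Neuron-like clusters held 51.7% to 75.6% of human cells. Clusters marked by GAD and DLX genes were counted apart and held up to 12.6% of cells, in PFC_4MPT. Astrocyte-like clusters were found only at 4MPT, with 606 cells in HIP and 507 in PFC. Markers of other cell types were scarce, from 3.11 to 9.11 counts per 1000000 UMIs (CPM) in all for 12 microglial genes, of which TREM2 and C1QA were at 0 in every library, from 6.11 to 13.2 CPM for 8 endothelial genes, from 0.0593 to 0.804 CPM for 7 red blood cell genes, from 5.04 to 22.7 CPM for 8 choroid plexus genes and from 18.7 to 33.1 CPM for 8 mural and fibroblast genes. In sums over all cells, fewer cells of a type and less RNA per cell cannot be told apart.

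Levels are given as CPM with TMM-scaled library sizes, and the site difference at a stage as the log2 ratio of PFC to HIP after adding 1 CPM to both. Over 18127 genes, the site difference at 2MPT and that at 4MPT ran in opposite directions more often than in the same one. The ratio lay on the same side of the median of all genes at both stages for 39.9% of genes and on opposite sides for 60.1%. Pearson's r between the stage ratios was -0.23 and Spearman's rho was -0.27, as a description over genes, which are not replicates and share the same 4 libraries and their depths. In clusters of neuron-like cells alone r was -0.26 and rho was -0.29. Of genes that differed at least 2-fold at both stages, 15 were higher in PFC at both stages, 10 were lower in PFC at both stages, 29 went from higher to lower and 28 from lower to higher. These counts were 14, 13, 41 and 20 with library totals in place of TMM and 3, 1, 4 and 2 with 10 CPM added in place of 1.

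**Figure D1:**
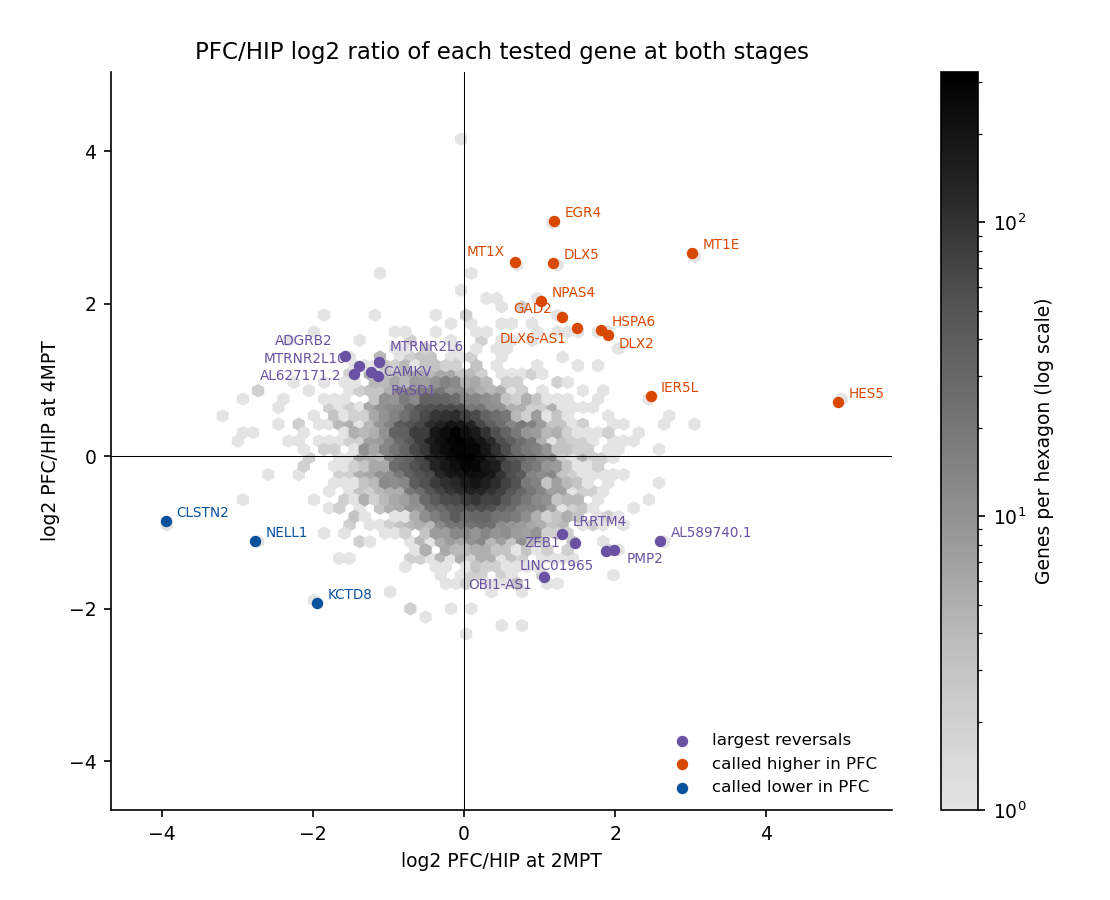
Log2 ratio of PFC to HIP at 2MPT (x axis) and at 4MPT (y axis) for each of the 18127 genes tested, binned in hexagons shaded by the number of genes. Orange and blue points are 14 of the genes called by the test over all 4 libraries, in the upper right and lower left, and purple points are the 12 genes with the largest reversal, in the other corners.

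Of 48 gene lists, 44 had at least 5 members with enough counts to be tested. For each, the median ratio of its members was taken relative to the median over all genes, which was -0.02 at 2MPT and 0.00 at 4MPT, and a list was said to keep or to reverse its direction when it lay at least 0.2 from that median at both stages. Lists that kept a direction were metallothioneins, immediate early genes and inhibitory neuron genes, higher in PFC, and hippocampal genes and potassium channels, lower in PFC. Lists that reversed were mitochondrially encoded respiratory chain genes, HLA class I genes, neuronal cytoskeleton genes and Cajal-Retzius genes, from lower to higher in PFC, and deep-layer cortical genes, from higher to lower. The other 34 lists lay within 0.2 of the median at 1 or both stages. For all genes, 20% lay above the median at both stages, 20% below it at both, 30% went from above to below and 30% from below to above, and the counts of members that follow are to be read against these shares.

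**Figure D2:**
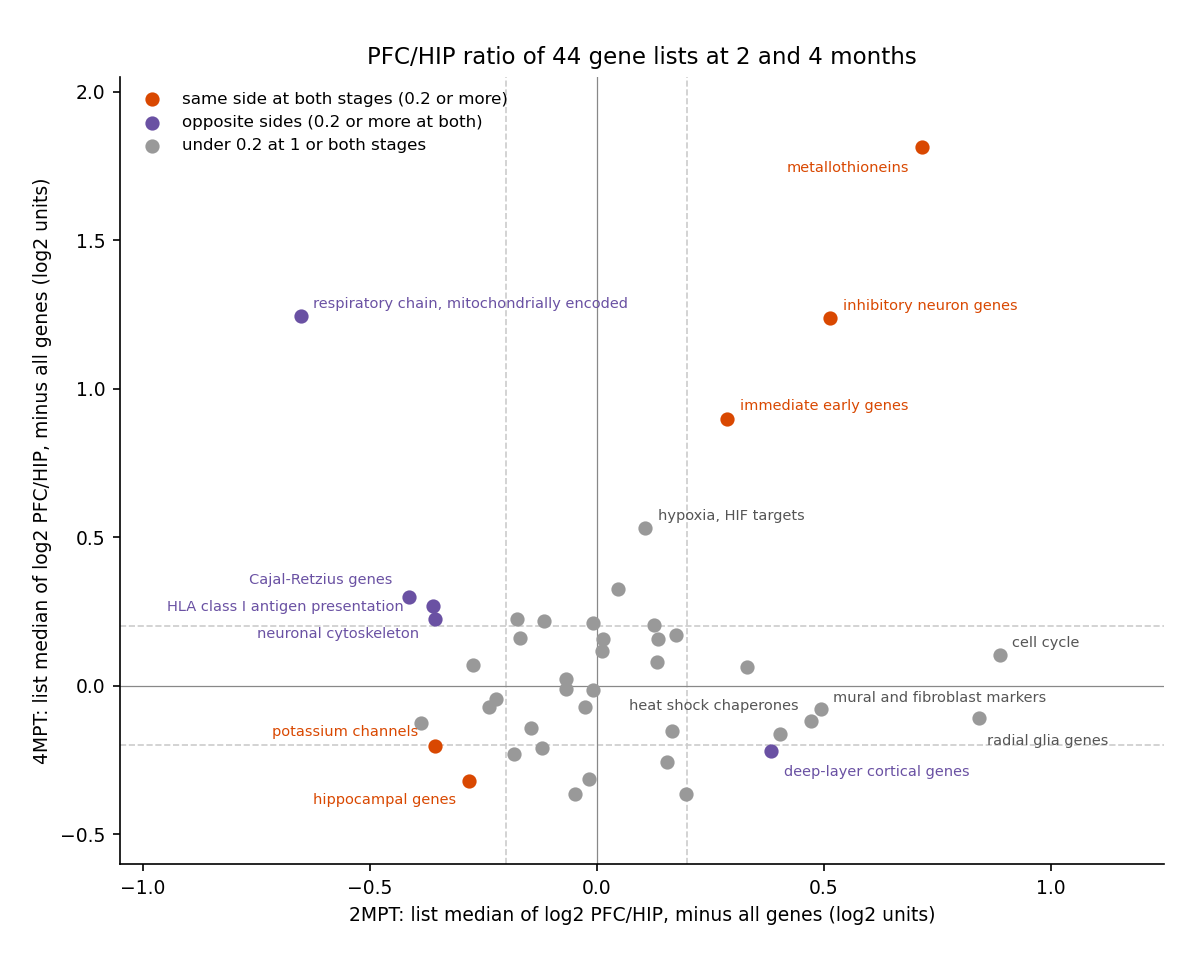
Median log2 ratio of PFC to HIP over the tested members of each of 44 gene lists, relative to the median of all genes, at 2MPT (x axis) and 4MPT (y axis). Dashed lines mark 0.2, orange lists lie beyond them on the same side at both stages (metallothioneins at 0.72 and 1.81), purple lists on opposite sides (mitochondrially encoded respiratory chain genes at -0.65 and 1.24) and grey lists lie within 0.2 at 1 or both stages.

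When the 4 libraries were fitted together with the stage as a covariate (edgeR quasi-likelihood test, 1 residual degree of freedom, Benjamini-Hochberg adjusted p under 0.05), 15 of 18127 genes were called between the sites (0.0827%), 12 of them higher in PFC (0.0662%) and 3 lower (0.0165%), and 443 had an unadjusted p under 0.05. The p-values rest on the spread between 2 stage differences, not between animals, with the variance of each gene drawn toward that of all genes. A called gene therefore need not have had similar ratios at both stages. KCTD8 had log2 ratios of -1.94 and -1.93 with an SE of 0.37, and CLSTN2 had -3.94 and -0.85 with an SE of 0.45. Among the called genes were MT1E and MT1X of the metallothioneins, EGR4 and NPAS4 of the immediate early genes, DLX2, DLX5, DLX6-AS1 and GAD2 of the inhibitory neuron genes, HES5 of the radial glia and Notch lists, HSPA6 of the heat shock chaperones and IER5L, all higher in PFC, and CLSTN2, NELL1 and KCTD8, lower in PFC. The count rested on the stage block, as it was 0 in the 4 libraries with no stage in the fit. Fits with 1 library left out also had no stage. The part of a single library in the count therefore cannot be told apart from that of the block. DESeq2 called 7 genes, all of them among the 15. Without PFC_4MPT the remaining PFC library was of 2MPT and was set against HIP libraries of both stages, and the log2 fold change turned to -2.01 for DLX2, -2.01 for DLX5, -3.06 for DLX6-AS1, -1.76 for GAD2 and -0.16 for MT1E. Without HIP_2MPT it was 0.49 for HES5, 0.78 for IER5L, -1.26 for NELL1 and -0.74 for CLSTN2, without HIP_4MPT it was 1.03 for EGR4 and 0.73 for NPAS4, and without PFC_4MPT it was 0.87 for MT1X.

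**Figure D3:**
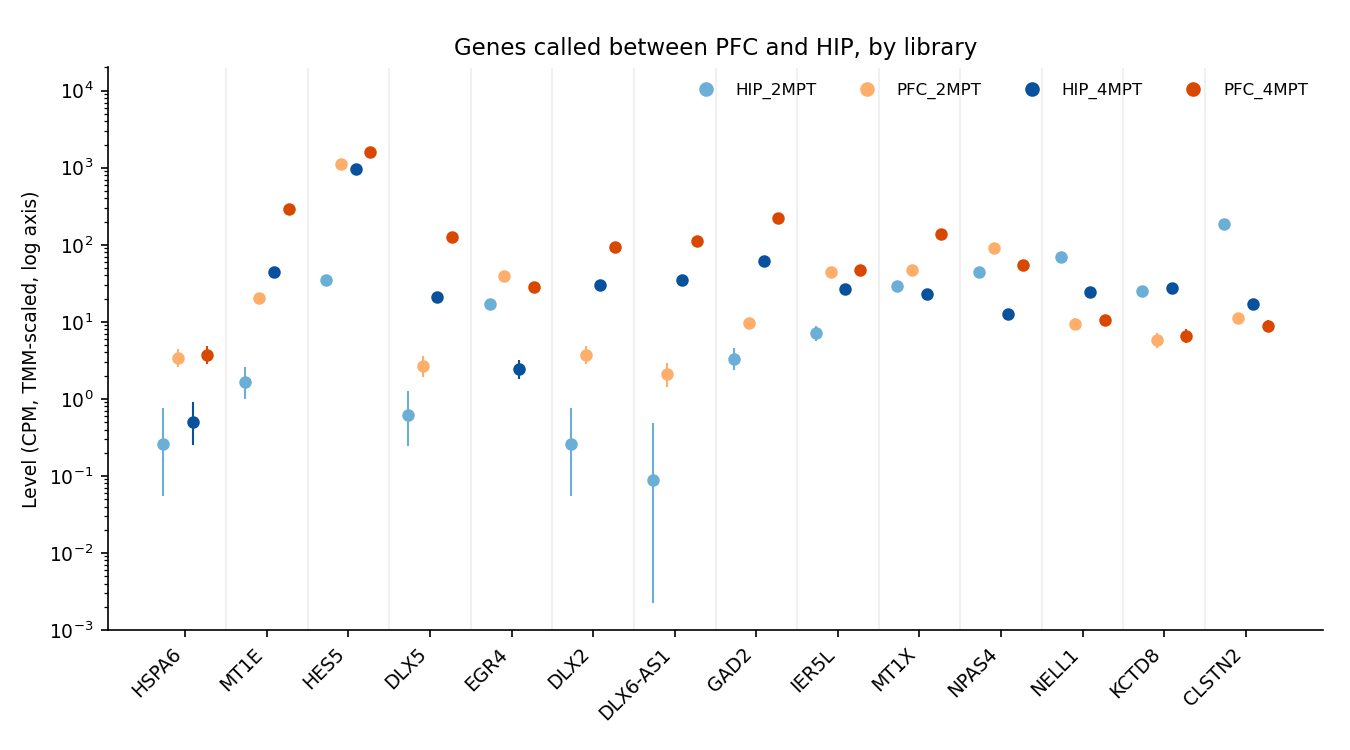
Level in CPM (log axis) of 14 genes called between the sites, with 1 point for each of the 4 libraries and bars for the exact 95% Poisson interval, which covers counting error only. The PFC point of a stage lies above the HIP point of that stage for the 11 genes higher in PFC and below it for NELL1, KCTD8 and CLSTN2, while the ratio differs between stages, as for HES5 (31.7 and 1.64).

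Metallothioneins, small cysteine-rich proteins that bind zinc and copper, gave the largest ratio of any list at 4MPT. MT1E stood at 1.67 CPM in HIP and 20.6 in PFC at 2MPT, and 44.5 in HIP and 289 in PFC at 4MPT. PFC was higher at both stages, by 12.3-fold at 2MPT (95% counting interval 7.77 to 20.8) and by 6.49-fold at 4MPT (6.06 to 6.97), and MT1E had the smallest adjusted p of all genes in edgeR (log2 fold change 3.06 ± 0.35 (SE, n = 2 libraries per site), Benjamini-Hochberg adjusted p = 1.08e-06). MT1X was at 28.9 and 46.5 CPM in HIP_2MPT and PFC_2MPT, and at 22.7 and 137 CPM in HIP_4MPT and PFC_4MPT. Its difference, 1.61-fold at 2MPT and 6.06-fold at 4MPT, also passed (log2 fold change 1.65 ± 0.36, adjusted p = 0.0434, edgeR). MT2A, the most widely expressed family member, was at 79.97, 237, 239 and 541 CPM in HIP_2MPT, PFC_2MPT, HIP_4MPT and PFC_4MPT and did not pass (edgeR adjusted p = 0.114), though PFC lay above HIP at both stages. MT3, which is typical of the brain, had log2 ratios of 0.72 and -0.18. MT1M and MT1F, named to complete the list after their values were seen, had ratios of 0.64 and 1.76, and of -1.23 and 1.87. Thus 4 of the 6 tested members lay above the median at both stages, and MT1A, MT1G and MT1H had too few counts to be tested. Members of the family are near-identical in sequence, so the split of reads between them is uncertain.

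At 4MPT the metallothionein UMIs lay largely in astrocyte-like cells. In PFC_4MPT, 89.7% of MT1E UMIs fell in 1 astrocyte-like cluster of 507 cells, where the level was 2725 CPM, and in HIP_4MPT 78.8% fell in an astrocyte-like cluster of 424 cells, at 386 CPM. At 2MPT, when no cluster was astrocyte-like, 77.9% of MT1E UMIs in PFC_2MPT were in a cluster of 664 progenitor-like cells led by HES1, TNC and VIM. Within astrocyte-like cells at 4MPT the median of the 7 tested members was 2.57 above all genes, with 6 of 7 higher in PFC, and this comparison has 1 library a side and no test. Within neuron-like cells the list went from -0.44 at 2MPT to 1.73 at 4MPT, so its common direction over all cells did not hold there.

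Metal-responsive transcription acts through short promoter elements, and the promoters of the family members found in the reference are shown because 2 metallothioneins were among the called genes. RefSeq promoters (GRCh38.p14, 250 bases before to 50 bases after the start) were found for MT1X at chr16:56682220-56682519 and MT2A at chr16:56608334-56608633, both on the plus strand, and for no other tested member. The letters TGCGCNC or TGCACNC, the core of a metal response element, are in capitals where they occur on either strand, 4 times in MT1X and 8 times in MT2A. These letters occur in 29.6% of all 35116 promoters of the table, and a match is a description, not a site.
MT1X: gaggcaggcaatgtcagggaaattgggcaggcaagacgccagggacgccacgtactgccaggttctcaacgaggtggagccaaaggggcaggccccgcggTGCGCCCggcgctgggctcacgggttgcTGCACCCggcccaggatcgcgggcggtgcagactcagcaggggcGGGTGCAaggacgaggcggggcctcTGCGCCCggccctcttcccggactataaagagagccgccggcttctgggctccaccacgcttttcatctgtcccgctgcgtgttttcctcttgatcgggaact
MT2A: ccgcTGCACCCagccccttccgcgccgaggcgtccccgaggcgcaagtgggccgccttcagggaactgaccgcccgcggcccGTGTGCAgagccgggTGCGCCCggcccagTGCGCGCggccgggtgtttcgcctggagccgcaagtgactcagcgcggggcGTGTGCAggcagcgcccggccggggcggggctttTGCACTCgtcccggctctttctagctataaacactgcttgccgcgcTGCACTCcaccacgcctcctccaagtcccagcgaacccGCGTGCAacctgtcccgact

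Immediate early genes, which cells transcribe within minutes of a stimulus, lay higher in PFC at both stages, with list medians of 0.29 at 2MPT and 0.90 at 4MPT. Of the 23 members 13 lay above the median of all genes at both stages, 9 went from below to above and 1 lay below at both. EGR4, an activity-induced zinc finger factor, stood at 16.8 CPM in HIP and 39.6 in PFC at 2MPT, and 2.44 in HIP and 28.1 in PFC at 4MPT, a ratio of 2.36-fold and then 11.5-fold (log2 fold change 2.32 ± 0.41, adjusted p = 0.0056, edgeR). NPAS4, a neuron-restricted factor induced by calcium entry, was at 43.9, 89.9, 12.5 and 53.9 CPM in the same order (log2 fold change 1.57 ± 0.32, edgeR adjusted p = 0.0277). In both genes HIP_4MPT was the lowest of the 4 libraries. The members with the highest levels did not pass (edgeR adjusted p = 0.9999 for each). FOS was at 1583, 2402, 1466 and 2795 CPM, EGR1 at 1119, 1396, 729 and 1249, and JUN at 1106, 1593, 780.5 and 861. IER2 had nearly equal levels at 2MPT, 2063 and 2013 CPM, and 1282 and 2084 CPM at 4MPT. The list kept its direction in each of the 7 alternative settings over all cells and in neuron-like cells (0.45 and 1.13), and in astrocyte-like cells at 4MPT it stood at 0.40. The study describes the same trypsin digestion for all grafted tissue, and the part of dissection and dissociation in these levels was not tested.

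Inhibitory neuron genes gave list medians of 0.51 at 2MPT and 1.24 at 4MPT. With a pseudocount of 10 CPM the medians were 0.08 and 0.66, and the list no longer kept a direction. Of the 21 tested members 5 were called, all higher in PFC, against 12 of 18127 genes called higher in PFC (0.0662%). Of the 26 genes of the list, 16 lay above the median of all genes at both stages, and 5 had too few counts to be tested. DLX5, a homeobox factor of interneuron progenitors, stood at 0.614 CPM in HIP and 2.66 in PFC at 2MPT, and 20.8 in HIP and 125 in PFC at 4MPT, with ratios of 4.33-fold (95% counting interval 1.93 to 11.5) and 6.003-fold (5.42 to 6.66), a log2 fold change of 2.46 ± 0.37 and an edgeR adjusted p of 0.000704. DLX2, which acts upstream of DLX5, rested on 3 UMIs in HIP_2MPT and 58 in PFC_2MPT, a ratio of 14.3 (4.66 to 71.4), and was at 30.2 and 93.1 CPM in HIP_4MPT and PFC_4MPT (edgeR adjusted p = 0.00657). The antisense transcript DLX6-AS1 rested on 1 and 32 UMIs at 2MPT, a ratio of 23.7 (3.96 to 964), and was at 34.7 and 114 CPM at 4MPT (edgeR adjusted p = 0.0102). At 2MPT these genes were near the limit of detection in both sites, and their levels came mainly from 4MPT.

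GAD2, which makes GABA from glutamate, was at 3.33, 9.67, 62.3 and 223 CPM in HIP_2MPT, PFC_2MPT, HIP_4MPT and PFC_4MPT (edgeR adjusted p = 0.0101). SOX6, a factor of maturing interneurons that glial progenitors also express, went the other way at 4MPT, with log2 ratios of 1.10 and -0.53. Outside HIP_2MPT, the cluster with most UMIs of DLX2, DLX5, DLX6-AS1 and GAD2 had GAD or DLX genes among its leading genes. Such clusters held 0 of 8277 cells in HIP_2MPT (a share of up to 0.0446%), 23 of 5952 in PFC_2MPT (0.386%, exact 95% interval 0.245 to 0.579), 324 of 6913 in HIP_4MPT (4.69%, 4.20 to 5.21) and 1051 of 8363 in PFC_4MPT (12.6%, 11.9 to 13.3). In PFC_4MPT, 287 of these cells were in a cluster led by SCGN and ERBB4, with DLX6-AS1 and DLX5 further down. The intervals cover counting error only, and with 1 library per site and stage the shares have no test. Of the DLX5 UMIs of PFC_2MPT 85.4% lay in the cluster of 23 cells. Without these clusters, which were split off after the data had been seen, 9 genes were called, DLX2 and DLX6-AS1 among them but not DLX5 or GAD2, and the list stood at -0.04 at 2MPT and 1.51 at 4MPT.

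Hippocampal genes, a list of transcription factors, Wnt pathway genes and membrane proteins, were lower in PFC at both stages, with list medians of -0.28 and -0.32. ETV1 and LMO3 were also in the deep-layer list, and the Wnt ligands WNT3A and WNT8B had too few counts to be tested. Of the 12 tested members, 6 lay below the median of all genes at both stages and 2 above it, and no member was called. The largest ratio at 2MPT in the list was that of EMX2, a factor of the medial cortical field, at 895 CPM in HIP and 263 in PFC at 2MPT, and 245 in HIP and 257 in PFC at 4MPT. HIP_2MPT stood alone, since the other libraries lay within 245 to 263 CPM. ZBTB20, a repressor that specifies hippocampal pyramidal neurons, was at 1048 and 929.7 CPM at 2MPT and 1848 and 1117 at 4MPT, with log2 ratios of -0.17 and -0.73 and a log2 fold change of -0.45 ± 0.36 (edgeR adjusted p = 0.9999). PROX1, which marks dentate granule cells and also some interneurons, was at 6.23 and 6.42 CPM and then 14.6 and 18.8, with ratios of 0.04 and 0.34. NR2F2, a nuclear receptor, had ratios of 1.06 and -0.38. Restricted to the 5 members at 50 CPM or more in a library the 2MPT median was 1.02 and the 4MPT median -0.40. The list median thus reversed there, although EMX2 and ZBTB20, which had high levels, lay lower in PFC at 2MPT. Summed over the tested members, the list stood at 2065 CPM in HIP and 1344 in PFC at 2MPT. At 4MPT the sums were 2437 and 1632 CPM. Most of the gap between these sums came from EMX2 at 2MPT and from ZBTB20 at 4MPT, so they do not describe the list as a whole. With a pseudocount of 10 CPM the medians were -0.14 and -0.24, and the list no longer kept a direction.

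The study also named TBR1 as a gene of the cortical site. TBR1, a factor of deep-layer neurons, was at 35.3 CPM in HIP and 42.2 in PFC at 2MPT, and 30.4 and 38.5 CPM at 4MPT, with log2 ratios of 0.25 and 0.33. None of TBR1, PROX1 and ZBTB20 passed the test in these sums.

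Potassium channels and their auxiliary subunits, listed together with KCTD8, KCTD12 and KCTD16, lay slightly lower in PFC. The medians were -0.36 and -0.20 over 31 tested of 36 genes. Of these, 12 lay below the median of all genes at both stages, 1 above it at both, and 9 each reversed in either direction. KCTD8, an auxiliary subunit of GABA-B receptors and not of a potassium channel, was the only member that passed. KCTD8 had nearly the same ratio at both stages, at 25.1 CPM in HIP and 5.77 in PFC at 2MPT, and 27.8 in HIP and 6.58 in PFC at 4MPT. It was thus 4.34-fold and 4.23-fold higher in HIP (log2 fold change -2.10 ± 0.37, edgeR adjusted p = 0.0056). Each HIP library exceeded each PFC library, and with any 1 library left out the log2 fold change stayed between -2.18 and -2.0. KCND2 and KCNH7, voltage-gated channel subunits with high levels, had ratios of 0.08 and -0.68, and of 0.00 and -0.36. The list fell short of 0.2 at both stages with a pseudocount of 10 CPM (-0.10 and -0.12), and at 4MPT in neuron-like cells (-0.15), without the GAD and DLX clusters (-0.17) and with human genes of the dual reference (-0.18).

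CLSTN2, a postsynaptic calsyntenin, and NELL1, a secreted glycoprotein, were the other genes called lower in PFC. CLSTN2 stood at 186 CPM in HIP_2MPT against 11.2 in PFC_2MPT, and at 17.0 CPM in HIP_4MPT against 8.96 in PFC_4MPT, so that HIP was 16.6-fold higher at 2MPT and 1.89-fold higher at 4MPT (log2 fold change -2.51 ± 0.45, edgeR adjusted p = 0.0056). NELL1 was at 69.7 and 9.41 CPM at 2MPT and 24.2 and 10.7 CPM at 4MPT, 7.41-fold and 2.26-fold higher in HIP (log2 fold change -2.03 ± 0.36, edgeR adjusted p = 0.0056). HIP_2MPT held the highest level of both. Within HIP_2MPT, 51.1% of CLSTN2 UMIs, 49.8% of NELL1 UMIs and 45.1% of KCTD8 UMIs lay in 1 cluster of 1403 neuron-like cells. In neuron-like cells alone CLSTN2 turned at 4MPT, at 4.92 CPM in HIP and 6.82 in PFC (log2 ratio 0.40, against -3.78 at 2MPT), and was not called there (edgeR adjusted p = 0.9998). NELL1 kept its direction there, at -2.91 and -0.85, and was not called either (edgeR adjusted p = 0.0569).

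HES5, a repressor induced by Notch in radial glia, gave the largest ratio at 2MPT of the called genes. Its level was 35.3 CPM in HIP and 1121 in PFC at 2MPT, and 971 in HIP and 1589 in PFC at 4MPT, so that PFC was 31.7-fold higher at 2MPT (95% counting interval 28.7 to 35.1) and 1.64-fold higher at 4MPT (1.61 to 1.67), and HIP_2MPT stood alone (log2 fold change 2.83 ± 0.60, edgeR adjusted p = 0.0434). At 4MPT the cluster with most HES5 UMIs was one of oligodendrocyte lineage cells, with 33.3% of them in HIP_4MPT and 55.1% in PFC_4MPT. In PFC_2MPT that cluster was progenitor-like (39.4%), and in HIP_2MPT it had no name (29.5%). HES1, a related repressor, was also higher in PFC at 2MPT, at 89.8 CPM in HIP and 322 in PFC (log2 ratio 1.83). At 4MPT HES1 was not higher in PFC, at 239 and 215 CPM (-0.15), and it was not called. HES6 had log2 ratios of 0.13 and 0.45, and the 22 tested genes of the pathway had medians of 0.33 and 0.06. Radial glia genes stood at 0.84 at 2MPT and -0.11 at 4MPT, and 14 of 25 went from above to below the median of all genes. VIM, their intermediate filament, was at 238 CPM in HIP and 667 in PFC at 2MPT, and 618 in HIP and 473 in PFC at 4MPT. Cell cycle genes stood at 0.89 at 2MPT, with 37 of 38 above the median, and at 0.10 at 4MPT. Of the 38, 21 lay above the median at both stages and 16 went from above to below. The list passed 0.2 at 4MPT at 50 CPM or more (0.28), with a human share over 0.9 (0.24) and with a mitochondrial share under 0.10 (0.22). Without the GAD and DLX clusters it stood at 0.31 at 4MPT. At 2MPT, 30.5% of PFC cells and 10.7% of HIP cells lay in progenitor-like clusters, but a cluster led by PPP1R17 and EOMES carried that name in PFC_2MPT and none in HIP_2MPT, where it held 13.7% of cells, so these shares were not compared.

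IER5L, a relative of the immediate early protein IER5, was at 7.10 CPM in HIP and 43.9 in PFC at 2MPT, and 26.4 in HIP and 46.4 in PFC at 4MPT (log2 fold change 1.68 ± 0.36, edgeR adjusted p = 0.0434). HSPA6, a chaperone made only under strong stress, had low levels that lie outside the limit of 10 CPM for named genes and is named as a called list member. It rested on 3 UMIs in HIP and 53 in PFC at 2MPT, and on 11 and 60 at 4MPT, with ratios of 13.1 (95% counting interval 4.24 to 65.4) and 7.41 (3.86 to 15.6) and an edgeR adjusted p of 0.0231. In PFC_2MPT 71.7% of these UMIs lay in a progenitor-like cluster and in PFC_4MPT 63.3% in an astrocyte-like cluster. The heat shock chaperones as a list, HSPA6 included, did not keep a direction, with medians of 0.47 at 2MPT and -0.12 at 4MPT over 19 genes, of which 10 went from above to below the median. HSP90AA1, the inducible cytosolic HSP90, was at 989 and 1242 CPM at 2MPT and at 1413 and 864 at 4MPT.

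The HSPA6 promoter is shown as that of the called member of the list. Its RefSeq window at chr1:161524290-161524589 (GRCh38.p14, plus strand) held the letters GAANNTTC, the paired core of a heat shock element, 2 times, in capitals. The same letters occurred in the windows of 8 of the 17 tested chaperone genes that had one and in 6.77% of all 35116 promoters.
HSPA6: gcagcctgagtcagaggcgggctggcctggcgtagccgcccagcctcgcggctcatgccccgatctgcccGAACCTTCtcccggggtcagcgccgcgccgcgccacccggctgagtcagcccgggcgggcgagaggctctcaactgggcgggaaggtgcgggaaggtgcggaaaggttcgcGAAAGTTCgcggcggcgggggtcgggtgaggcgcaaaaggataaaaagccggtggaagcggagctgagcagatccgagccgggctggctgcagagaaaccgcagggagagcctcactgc

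The 13 mitochondrially encoded respiratory chain genes reversed as a block, with medians of -0.65 at 2MPT and 1.24 at 4MPT. All 13 members lay below the median of all genes at 2MPT and above it at 4MPT, a pattern that 30% of all genes had. MT-CO2, a catalytic subunit of cytochrome c oxidase, stood at 6842 CPM in HIP and 4262 in PFC at 2MPT, and 4976 in HIP and 14320 in PFC at 4MPT. MT-CO3 was at 5530, 3230, 3682 and 11420 CPM and MT-ND3, a subunit of complex I, at 4940, 2687, 3645 and 9478 CPM. PFC_4MPT was the highest library and PFC_2MPT the lowest for these genes, with log2 ratios at 2MPT and 4MPT of -0.68 and 1.53 for MT-CO2, of -0.78 and 1.63 for MT-CO3 and of -0.88 and 1.38 for MT-ND3. MT-CO1 had the smallest difference at 2MPT, with ratios of -0.26 and 1.05. None of the 13 was called over both stages.

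The mitochondrial share of each cell, which is counted from these same genes, entered the rule for human cells with an upper limit. That the share was highest in PFC_4MPT therefore restates the same counts and is not a separate observation. With a limit of 10% in place of 15% the medians were -0.65 and 1.13, and with a human share over 90% they were -0.66 and 1.19. In neuron-like cells they were -0.61 and 1.27, and in astrocyte-like cells at 4MPT the median was 0.86. PFC_4MPT was also the library with the most mixed barcodes and mouse UMIs, and their part in this result was not tested. The 56 nuclear-encoded subunits had the same signs with smaller medians, -0.17 and 0.22, and 48 of 56 went from below to above the median of all genes. COX7C, a small subunit of cytochrome c oxidase, was at 932 and 860 CPM at 2MPT and 878 and 948.5 at 4MPT, and NDUFC2 of complex I at 834 and 677 and then 562 and 742 CPM. In neuron-like cells the nuclear-encoded list passed 0.2 at both stages (-0.25 and 0.23), and in astrocyte-like cells at 4MPT it stood at -0.02.

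HLA class I genes, which display peptides on the cell surface, with the peptide transporters and proteasome subunits that serve them, stood at -0.36 at 2MPT and 0.27 at 4MPT, and 11 of 14 went from below to above the median of all genes. B2M, the common light chain, was at 133 CPM in HIP and 111 in PFC at 2MPT, and 196 in HIP and 231 in PFC at 4MPT. HLA-C was at 51.7 and 32.1 CPM at 2MPT and at 36.7 and 44.3 at 4MPT. The differences were small, none of the 14 was called, and reads can be exchanged between near-identical class I genes. In neuron-like cells the medians were wider apart, -0.74 and 0.66.

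Neuronal cytoskeleton genes stood at -0.36 and 0.22, with 14 of 27 from below to above and 5 above at both stages. TUBA1A, the main alpha tubulin of young neurons, was at 7693 CPM in HIP and 5981 in PFC at 2MPT, and 3583 in HIP and 5696 in PFC at 4MPT, and TMSB10, an actin-binding peptide, at 7682, 4601, 3458 and 4827 CPM. In both genes HIP_2MPT was the highest and HIP_4MPT the lowest of the 4 libraries, with the PFC libraries between them. STMN2, a tubulin-binding protein of growing axons, had ratios of -0.57 and 0.02. In neuron-like cells the medians were -0.19 and -0.07, so the list did not reverse there.

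Deep-layer cortical genes were the 1 list that went from higher to lower in PFC, at 0.39 and -0.22. Only 4 of its 13 members did so, which is near the 30% of all genes. Another 4 lay above the median at both stages and 4 below it at both. The 4MPT median fell short of the limit with a pseudocount of 10 CPM (-0.17) and without the GAD and DLX clusters (-0.18). It also did so with a human share over 0.9 (-0.19) and a mitochondrial share under 0.10 (-0.20 after rounding). SOX5, a factor of corticofugal neurons, was at 266 CPM in HIP and 531.5 in PFC at 2MPT, and 667 in HIP and 455 in PFC at 4MPT. TLE4, a corepressor of corticothalamic neurons, was at 38.7 and 77.2 CPM and then 141 and 79.1. NFIB was nearly equal at both stages, with ratios of -0.10 and -0.23. In neuron-like cells the list stood at 0.00 at both stages. Upper-layer genes had the same signs (0.40 and -0.16), with 9 of 12 from above to below the median, and in neuron-like cells they passed 0.2 at both stages (0.68 and -0.30). UNC5D, a netrin receptor of upper-layer neurons, was at 361 and 766 CPM at 2MPT and at 671 and 420 CPM at 4MPT, while BHLHE22 was lower in PFC at both stages (-0.48 and -0.60).

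Cajal-Retzius genes, of the reelin-making cells of the marginal zone, rested on 7 tested of 13 genes, all under 10 CPM in every library. The medians were -0.41 and 0.30. CALB2, a calcium-binding protein that interneurons also make, had the widest change of ratio, from 2.19 CPM in HIP_2MPT and 0.519 in PFC_2MPT to 1.01 in HIP_4MPT and 9.71 in PFC_4MPT. CXCR4, a chemokine receptor, was at 8.07, 5.39, 7.84 and 9.90 CPM in that order. RELN itself, TP73, EBF1, EBF2, EBF3 and NDNF had too few counts to be tested, so the medians hold no reelin. No member reached 50 CPM. The list no longer reversed with a pseudocount of 10 CPM, with the dual reference or without the GAD and DLX clusters (0.16 at 4MPT).

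**Figure D4:**
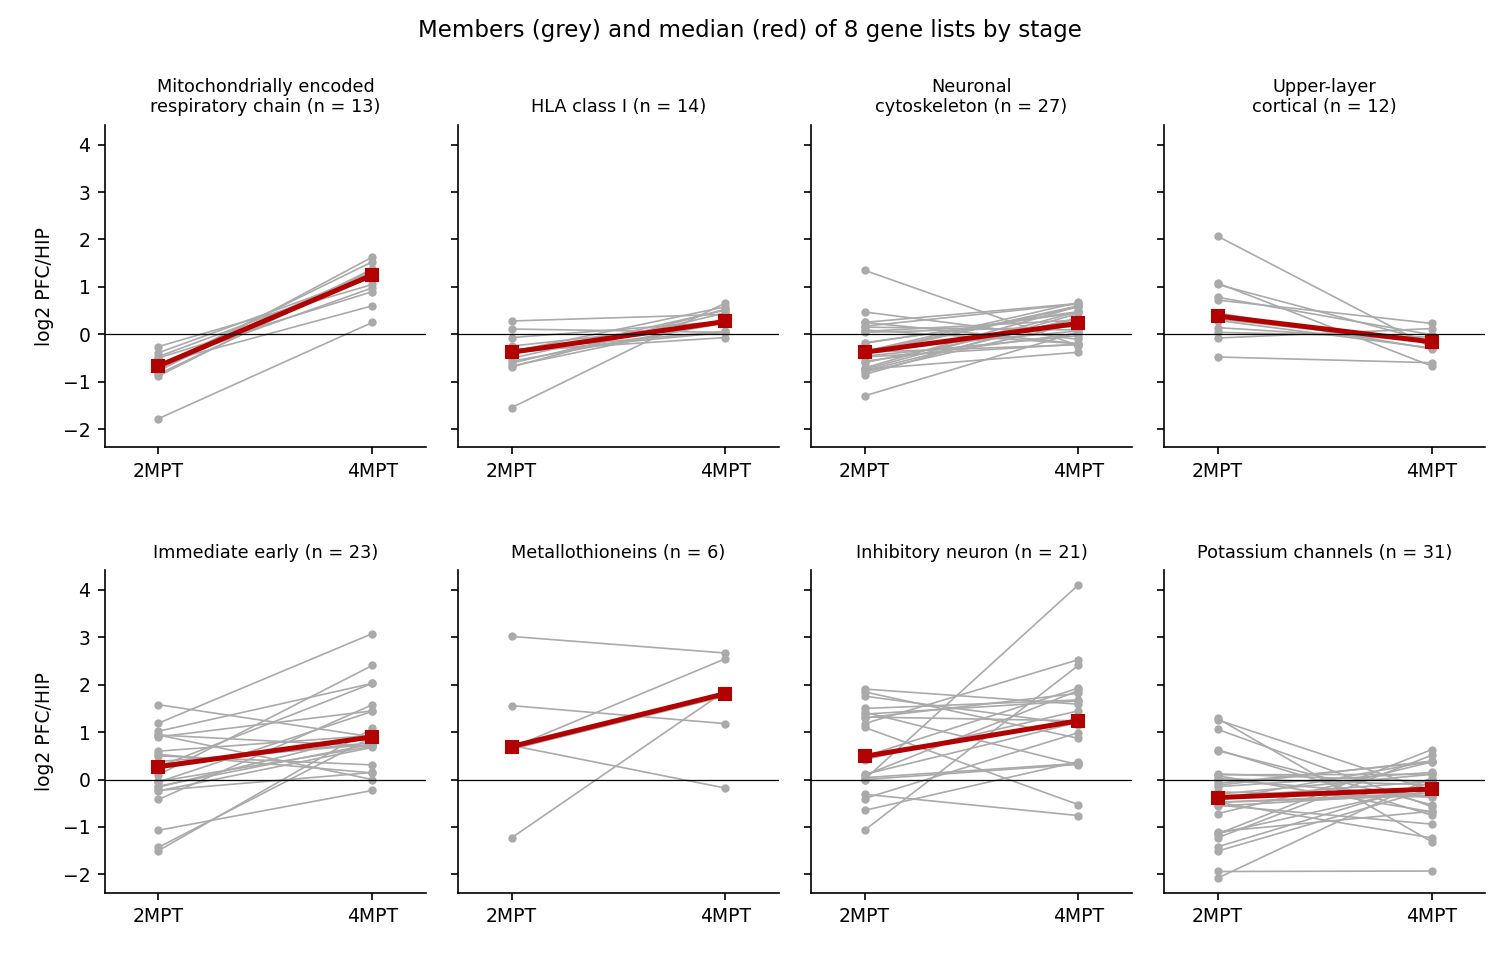
Log2 ratio of PFC to HIP at 2MPT and 4MPT for the tested members of 8 gene lists, with 1 grey line per gene, a red line for the list median and the number of genes in each title. All 13 mitochondrially encoded genes cross from below to above 0, while members of the immediate early, inhibitory neuron and potassium channel lists spread over both sides.

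Among genes with at least 100 UMIs in all and 50 CPM in a library (4160 genes), 1415 went from higher to lower in PFC and 1299 from lower to higher, and 6 in each direction did so by at least 2-fold at both stages. None of these 12 was called. From higher to lower were the noncoding transcripts AL589740.1, LINC01965 and OBI1-AS1, the myelin and glial lipid carrier PMP2, the zinc finger repressor ZEB1 and the synaptic adhesion protein LRRTM4. AL589740.1 was at 251 CPM in HIP and 1525 in PFC at 2MPT, and 2509 in HIP and 1162 in PFC at 4MPT, and ZEB1, which keeps neural progenitors undifferentiated, was at 53.8, 151, 371 and 168 CPM. In both, HIP_2MPT was the lowest and HIP_4MPT the highest library. PMP2 was at 5.17 and 23.5 CPM at 2MPT and at 217 and 91.9 CPM at 4MPT.

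From lower to higher in PFC were the adhesion receptor ADGRB2, the pseudokinase CAMKV, the Ras-related protein RASD1, the transcript AL627171.2 and the humanin-like loci MTRNR2L6 and MTRNR2L10. ADGRB2, a brain receptor of the adhesion family, was at 66.2 CPM in HIP and 21.5 in PFC at 2MPT, and 13.9 in HIP and 36.2 in PFC at 4MPT, and CAMKV, which is enriched at synapses, was at 96.0, 40.3, 12.8 and 28.8 CPM. RASD1, which is induced by glucocorticoids, was at 275 and 125 CPM at 2MPT and 79.5 and 165 CPM at 4MPT. In these 3 genes HIP_2MPT was the highest and HIP_4MPT the lowest library. MTRNR2L6 and MTRNR2L10 are nuclear copies of the mitochondrial 16S ribosomal RNA gene, so reads of both origins cannot be told apart, and they moved with the mitochondrially encoded genes, at ratios of -1.12 and 1.24, and of -1.39 and 1.19.

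In neuron-like cells alone, with the GAD and DLX clusters left out, 5 of 15943 genes were called (0.0314%), 4 higher in PFC (0.0251%) and 1 lower (0.00627%), and 306 had an unadjusted p under 0.05. KCTD8 was at 31.2 CPM in HIP and 8.28 in PFC at 2MPT, and 39.3 in HIP and 8.09 in PFC at 4MPT (edgeR adjusted p = 0.00423). EGR4 was at 20.7 and 60.6 CPM and then 5.25 and 46.7 (edgeR adjusted p = 0.00423), and IER5L at 5.97 and 41.1 and then 13.2 and 49.5 CPM (edgeR adjusted p = 0.00235). The other calls were HES5, at 7.02, 44.5, 56.1 and 175 CPM, and NRARP, a feedback inhibitor of Notch signalling, at 4.33, 22.0, 6.998 and 23.1 CPM (log2 fold change 2.02, edgeR adjusted p = 0.0259), which is named outside the rule for genes since it was called here alone. Of the 403, 17274, 21063 and 25362 HES5 UMIs of the libraries, 60, 425, 513 and 1387 lay in neuron-like cells, and the part of RNA from other cells in these levels was not tested. The count was 0 with no stage in the fit and 27 with the GAD and DLX clusters. Cells of the class came from clusters made in each library on its own.

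Over all genes in neuron-like cells, 19.5% lay above the median at both stages, 19.4% below it at both, and 30.5% reversed in each direction. Among lists with at least 5 tested members there, immediate early genes kept their direction, hippocampal genes did so at -0.37 and -0.21, and GABA-A receptor subunits stood at -0.30 and -0.47. The mitochondrially encoded and nuclear-encoded respiratory chain, HLA class I genes, metallothioneins, cell cycle genes and inhibitory neuron genes went from lower to higher in PFC. Cell cycle genes stood at -0.35 and 0.46 there, and the 10 tested inhibitory neuron genes at -0.54 and 0.74, most of them at low levels. GPHN, the scaffold of GABA-A receptors and itself in that list, had ratios of 0.63 and -0.84, so it reversed while the list median did not. Of the 9 tested members of the list, 3 lay below the median at both stages and 1 above it at both. Another 3 went from above to below and 2 from below to above.

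In astrocyte-like cells the comparison was possible at 4MPT only, between 606 cells in HIP and 507 in PFC, without replicates. Metallothioneins lay highest, with MT1E at 344 CPM in HIP_4MPT and 2751 in PFC_4MPT, MT1X at 123 and 1166, and MT2A at 1475 and 4538. Heat shock chaperones stood at -0.51, with HSP90AA1 at 2032 and 1152 CPM, and APOE, the lipid carrier of astrocytes, was at 5185 CPM in HIP and 3063 in PFC. GABRB1, a GABA-A receptor subunit, was at 311 and 81.8 CPM. The study reported dopaminergic synapse, cholinergic synapse and gap junction pathways as enriched in PFC_4MPT astrocytes. It used tests over single cells, pathway database gene sets and its own astrocyte class. It also gave evidence from histology and from cultured astrocytes. The lists here hold other gene sets in otherwise defined cells, so their medians do not test that result. The 22 tested dopamine and acetylcholine genes had a median of 0.11 and the 6 tested gap junction genes one of -0.57 in astrocyte-like cells, while over all cells these lists stood at -0.07 and 0.02, and at 0.01 and 0.16.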

How the data were processed

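Single cells were profiled by droplet sequencing (10x 3' chemistry), with 1 library per graft site and stage. The authors made the deposited count matrices with Cell Ranger (3.1 per the submitters' notes), and each holds UMI counts per gene and barcode against a human reference (GRCh38) and against a human-mouse reference. Nothing was normalized in these counts. Human cells were taken by the stated limits. Apart from leaving out mixed-species barcodes, doublets were not treated. UMIs were summed per library with all genes kept, over all cells or over clusters named from markers (scanpy 1.11.5, 2000 variable genes, 30 components, 20 neighbours, resolution 1, each library on its own). Clusters with GAD or DLX genes among their leading genes were split from the neuron-like class after the data had been seen.

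Site was tested with edgeR 4.0.16 in R 4.3.3 (filterByExpr, TMM, quasi-likelihood test, Benjamini-Hochberg adjusted p under 0.05) with stage as the block that pairs the libraries, since the study compares sites within a stage. DESeq2 1.42.0 was the other tool. With 2 libraries a site the fit had 1 residual degree of freedom. Whether same-stage libraries deviate together could not be checked apart from the stage effect itself. Per-stage log2 ratios used a pseudocount of 1 CPM, which understates the change of low genes. Intervals are exact 95% (Poisson for CPM, binomial for ratios of counts and shares, scipy 1.17.1) and cover counting error only, and a share with a count of 0 is given by its exact upper limit. The scripts were tested on simulated data.

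Named genes were, in each direction, the 10 called genes with the largest log2 fold change that averaged 10 CPM or more, the 6 of largest reversal, the called members (up to 5) and the 4 of highest mean CPM of each list described, and TBR1, PROX1 and ZBTB20. A few genes that this rule names are not reported here. XIST and Y-linked genes were left out. The members and lists were chosen with earlier results of these data known. The astrocyte-like fit over both stages was not run, as no cluster was astrocyte-like at 2MPT.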

Additional observations from a re-analysis of the deposited data

Results flagged for a closer look

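The following lists and genes had opposite site differences at 2MPT and at 4MPT, and with 1 library per site and stage the difference between the stages was not tested. Medians relative to all genes at 2MPT and 4MPT were -0.65 and 1.24 for mitochondrially encoded respiratory chain genes, -0.36 and 0.27 for HLA class I genes, 0.39 and -0.22 for deep-layer cortical genes, -0.41 and 0.30 for Cajal-Retzius genes and -0.36 and 0.22 for neuronal cytoskeleton genes.

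Log2 ratios of PFC to HIP went from higher to lower for AL589740.1 (2.60 and -1.11), PMP2 (1.99 and -1.23), LINC01965 (1.88 and -1.24), ZEB1 (1.47 and -1.14), LRRTM4 (1.30 and -1.02) and OBI1-AS1 (1.06 and -1.58). They went from lower to higher for ADGRB2 (-1.58 and 1.32), AL627171.2 (-1.46 and 1.08), MTRNR2L10 (-1.39 and 1.19), CAMKV (-1.23 and 1.11), RASD1 (-1.14 and 1.05) and MTRNR2L6 (-1.12 and 1.24). These genes were picked for their reversal, so its size is a description.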

How the results depend on the processing

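The 15 genes called over all cells became 7 with DESeq2, 36 with no filter on low counts, 33 with a human share over 0.9, 33 with a mitochondrial share under 0.10, 5 with over 1000 UMIs per cell and 9 without the GAD and DLX clusters, a setting chosen after seeing the data. Leaving out 1 library gave 0 to 13. The 5 genes called in neuron-like cells became 21 with no filter and 27 with the GAD and DLX clusters, and 0 to 55 when 1 library was left out. Without the stage block that gives the pairing, 0 genes were called in either set. With 1 library left out and no stage in the fit, log2 fold changes ran from -2.01 to 7.50 for DLX2, -2.01 to 6.70 for DLX5, -3.06 to 9.25 for DLX6-AS1, -1.76 to 5.14 for GAD2 and -0.16 to 6.55 for MT1E, the lowest without PFC_4MPT and the highest without HIP_4MPT. They ran from 0.49 to 5.28 for HES5, -4.18 to -0.74 for CLSTN2, 1.03 to 3.80 for EGR4, 0.73 to 2.54 for NPAS4, 0.87 to 2.43 for MT1X, 0.78 to 2.69 for IER5L, -2.77 to -1.26 for NELL1 and 2.82 to 3.75 for HSPA6. Spearman's rho was -0.386 over genes at 50 CPM or more. Counting lists with at least 5 tested members in each setting, the 5 lists that kept a direction became 2 with a pseudocount of 10 CPM, 8 at 50 CPM or more and 3 in neuron-like cells, and the 5 that reversed became 1 with that pseudocount, 8 at 50 CPM or more and 2 without the GAD and DLX clusters. Except where the setting itself took out libraries or genes, the cause was not tested.

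Of list medians at least 0.2 from that of all genes over all cells, those that changed sign in neuron-like cells were, at 2MPT, metallothioneins (-0.44), cell cycle (-0.35), Notch pathway (-0.04), inhibitory neuron (-0.54) and radial glia genes (-0.09), and, at 4MPT, deep-layer (0.00), neuronal cytoskeleton (-0.07), astrocyte homeostasis (0.13) and oligodendrocyte lineage genes (0.16). With the same limit, in astrocyte-like cells at 4MPT they were nuclear-encoded respiratory chain (-0.02), unfolded protein response (-0.15), Hedgehog pathway (0.26) and Cajal-Retzius genes (-0.42). At 50 CPM or more they were hypoxia (-0.05) and unfolded protein response (-0.12) at 4MPT and hippocampal (1.02) and GABA-A receptor genes (0.06) at 2MPT. Without the GAD and DLX clusters the inhibitory neuron median at 2MPT was -0.04. The alternatives planned for an astrocyte-like fit over both stages were not run. With 1 library per site and stage, site cannot be told apart from what else differed between hosts or preparations.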

Other observations

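Lists not described above lay near the median of all genes or were off it at 1 stage, and the values are given without a test. Ribosomal protein genes stood at -0.01 at 2MPT and 0.21 at 4MPT over 78 genes, of which 35 lay above the median at both stages, with RPL10 at 5333 CPM in HIP and 5317 in PFC at 2MPT, and 5805 in HIP and 7196 in PFC at 4MPT. Genes of cholesterol synthesis lay slightly above it at both stages (0.14 and 0.16), with 14 of 27 above at both and 0 below at both. Hypoxia targets stood at 0.11 and 0.53 and glycolysis enzymes at 0.05 and 0.33. BNIP3, a mitophagy receptor induced by hypoxia, was at 44.3 and 50.6 CPM in HIP_2MPT and PFC_2MPT and at 76.3 and 113 CPM in HIP_4MPT and PFC_4MPT.

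Oligodendrocyte lineage genes stood at 0.197 and -0.36, just short of the limit for a reversal at 2MPT, which they passed in 3 of 7 alternative settings over all cells, and astrocyte homeostasis genes at 0.16 and -0.26. OLIG1, a factor of oligodendrocyte precursors, was at 4.12 CPM in HIP and 21.2 in PFC at 2MPT, and 438 in HIP and 231 in PFC at 4MPT, so that both sites were far higher at 4MPT while the site ratio turned from 2.12 to -0.92 on the log2 scale. APOE was at 8.68, 13.2, 651 and 320 CPM in the same order. Hedgehog pathway genes stood at -0.05 and -0.36, Wnt pathway genes at -0.12 and -0.21, BMP and TGF-beta genes at 0.17 and -0.15, and cadherins at -0.02 and -0.31. GLI3, a transcription factor of the Hedgehog pathway, had ratios of 0.95 and -0.93, and PCDH7, a protocadherin, of -0.23 and -1.15. Synaptic vesicle genes stood at -0.27 and 0.07, postsynaptic density genes at -0.17 and 0.16, glutamate receptors at -0.14 and -0.14, and sodium and calcium channels at -0.39 and -0.12. The remaining lists were axon guidance (-0.24 and -0.07), fetal timing (-0.18 and -0.23), interferon response (0.18 and 0.17), translation factors (0.13 and 0.20), unfolded protein response (-0.12 and 0.22), proneural factors (0.13 and 0.08), proteasome (0.01 and 0.12), iron handling (-0.03 and -0.07), extracellular matrix (-0.01 and -0.02), FGF pathway (-0.07 and -0.01) and mural and fibroblast markers (0.49 and -0.08).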
